A study of Homo sapiens with 12 samples.

Results

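Silencing of MUC1 in THP-1 cells was described here from 6 of the 12 samples of the series, the 3 THP-1 samples with an shRNA specific for MUC1 and the 3 THP-1 samples with a scrambled control hairpin. THP-1 is an established human acute myeloid leukaemia line of monocytic type, and both hairpins were delivered by lentiviral transduction, so the controls carry a vector as well. RNA came from an equal number of transduced cells per sample, and miRNAs were counted with a NanoString assay, which counts barcoded probes without amplification. The miRNAs described, called members below, were the 51 of 798 probes with 30 counts or more in at least 3 of these 6 samples. Nothing in the labels says that the 3 samples of a group came from separate cultures or from more than 1 hairpin sequence, so the spread between them may be technical. How far MUC1 itself was lowered was not analysed here.

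A miRNA is cut from a longer hairpin transcript by Drosha and Dicer, is loaded into an Argonaute protein, and lowers target mRNAs that pair with its seed, the stretch after its first base. MUC1 is a transmembrane mucin whose C-terminal part acts as an oncoprotein in leukaemia cells. Myeloid cells are known for miR-223-3p, miR-155-5p and miR-21-5p, and members of 1 seed family can act on shared targets.

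Mature sequences are shown for members that share a seed with another member, whether or not they changed, and for 4 other falls and the 2 rises. The let-7 members are nearly identical, which bears on how far single probes can be told apart. Of the 51 member probes, 47 matched a mature sequence in RefSeq (GRCh38.p14). Sequences run 5′ to 3′ with the seed (bases 2 to 8) in capitals. The first 6 share the let-7 seed, the next 2 the miR-15/16 seed, the next 3 the miR-93 seed and the next 3 the miR-25 seed, and the last 6 have seeds of their own.
let-7a-5p: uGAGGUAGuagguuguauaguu
let-7b-5p: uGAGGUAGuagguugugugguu
let-7c-5p: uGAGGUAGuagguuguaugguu
let-7d-5p: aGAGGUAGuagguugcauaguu
let-7g-5p: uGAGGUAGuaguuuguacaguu
let-7i-5p: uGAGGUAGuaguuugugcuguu
miR-15b-5p: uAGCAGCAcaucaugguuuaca
miR-16-5p: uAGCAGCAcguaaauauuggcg
miR-93-5p: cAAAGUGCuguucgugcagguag
miR-20a-5p: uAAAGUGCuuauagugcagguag
miR-20b-5p: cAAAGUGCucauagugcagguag
miR-25-3p: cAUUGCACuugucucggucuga
miR-92a-3p: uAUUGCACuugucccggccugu
miR-363-3p: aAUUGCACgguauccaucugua
miR-191-5p: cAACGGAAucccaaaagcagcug
miR-23a-3p: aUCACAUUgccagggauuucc
miR-223-3p: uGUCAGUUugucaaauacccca
miR-181a-5p: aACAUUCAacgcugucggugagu
miR-196a-5p: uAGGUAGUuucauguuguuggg
miR-1180-3p: uUUCCGGCucgcgugggugugu
Among the 6 let-7 members, let-7c-5p differs from let-7a-5p and from let-7b-5p at 1 of 22 bases each, and the farthest pair, let-7d-5p and let-7i-5p, differs at 6. Signal shared between such probes cannot be told apart in these counts, so a single let-7 value is uncertain. For the same reason the 6 values may not be independent of each other, and the family as a whole was not tested.

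In the libraries the summed counts of the members were lower in silenced than in scrambled samples, while those of background probes overlapped between the groups. Total counts were 12613, 11529 and 9002 in the silenced samples 1, 2 and 3 and 17123, 20418 and 18110 in the scrambled samples. Background probes, the 681 whose counts lay between 1 and 30 without reaching either in any of these samples, had library means of 14.3, 13.1 and 10.2 counts in silenced and 13.5, 14.4 and 14.9 in scrambled samples. The 51 members summed to 1883, 1733 and 1327 counts in silenced and to 6817, 9350 and 6717 in scrambled samples, so these groups did not overlap. Members thus held 14.9%, 15.0% and 14.7% of the counts of the silenced libraries and 39.8%, 45.8% and 37.1% of the scrambled ones. Much of that gap was 1 miRNA, let-7b-5p, with 1.89%, 1.76% and 1.67% of silenced and 19.9%, 23.8% and 18.0% of scrambled counts. Without let-7b-5p the members still summed to 1644, 1530 and 1177 against 3408, 4490 and 3458 counts. Members outside the let-7 family summed to 1589, 1475 and 1139 against 2600, 3115 and 2688. Probes that were neither members nor background summed to 974, 854 and 725 against 1124, 1240 and 1220, also without overlap. Members and background probes were chosen by counts in these same samples, 21 of the 51 members through the scrambled group alone. The contrast between the classes is therefore partly set by the rules. The lower total counts moved with the lower member counts, and the part that the amount of miRNA in the assayed RNA had in this was not tested. In such bulk RNA, fewer cells holding a miRNA and less of it per cell cannot be told apart.

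**Figure D1:**
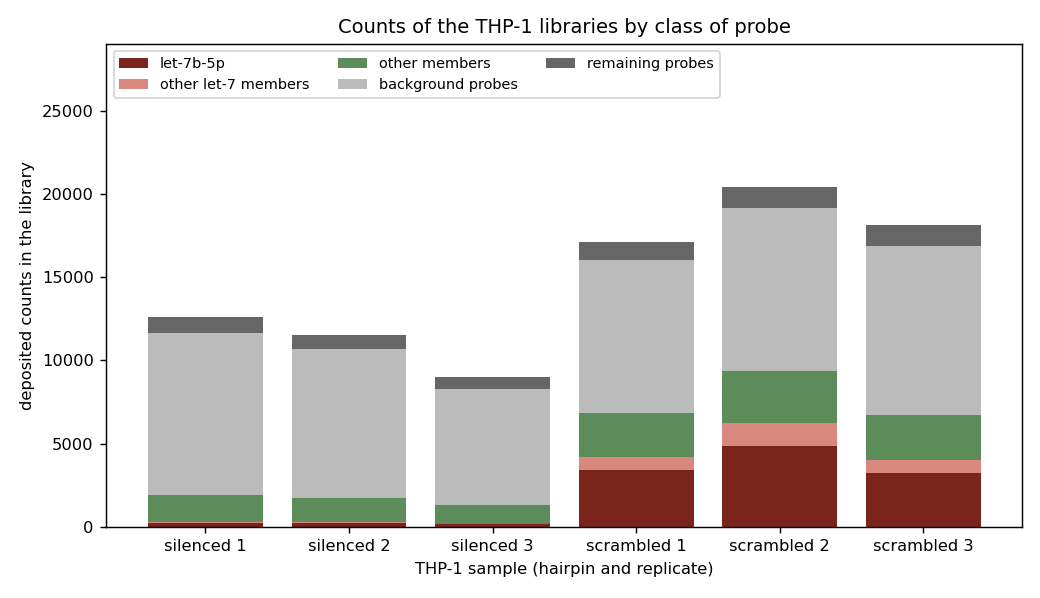
Deposited counts of each THP-1 library (vertical axis, counts) for 3 silenced and 3 scrambled samples, stacked by class of probe: let-7b-5p, the other let-7 members, the other members, the 681 background probes and the remaining probes. Background probes give blocks of 6950 to 10173 counts in all 6 libraries, while the 3 member blocks together reach 1327 to 1883 counts in silenced and 6717 to 9350 in scrambled libraries.

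Because the summed member counts were lower in silenced samples, libraries were set to a common sum of background probes. This is called background scaling here, and it does not assume that most miRNAs stay level. It does take the signal of background probes as equal in both groups, which was not tested. The scaled member sums were 1764, 1771 and 1745 in silenced and 6785, 8694 and 6034 in scrambled samples. The silenced samples lay close to each other. By a chi-square test of counts over the members none of their 3 pairs differed at the 0.05 level (chi-square divided by its degrees of freedom, 0.784 to 1.09). Over all fitted probes with that many counts only silenced samples 1 and 3 differed, at 1.12. Every pair of scrambled samples differed over the members, at 1.42 to 4.02. The calls are therefore given below also with the 3 silenced samples averaged into 1.

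The comparison asked which miRNAs change in THP-1 when MUC1 is silenced. With edgeR's quasi-likelihood test over the 780 probes that were above 1 in some sample, 29 of the 51 members passed an adjusted p of 0.05, 27 lower and 2 higher in silenced cells. Over all 780 probes fitted 39 passed, a share of 5.0%, with 4.49% lower and 0.513% higher, most of these probes lying at background in both groups. Where lists are set against 4.49% below, the share of 27 in 51 is the nearer measure for probes that are members. The median log2 fold change was -0.80 over the members and -0.02 over all probes fitted. The second value lies near 0 by construction, since 681 of the 780 are the background probes whose sum sets the scaling. The count of falls is not independent of how members were chosen. Of the 51 members, 21 reached 30 counts in no silenced sample and passed the count rule through the scrambled group alone, and 19 of these 21 are among the 27 that fell. In deposited counts, 31 members lay lower in every silenced than in every scrambled sample and 2 lay higher, against 14.2% and 1.54% of the fitted probes. After scaling the same numbers were 31 and 2, against 10.6% and 5.90%.

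Scaling decided the balance of rises and falls. TMM factors over the members, which take most members as level, raised every log2 fold change by 0.77 and gave 34 member calls, 19 higher (55.9%) against 2 of 29 (6.90%) with background scaling. Scaling by total count raised values by 0.56 and gave 28 member calls, 11 higher (39.3%). With no scaling at all values shifted by -0.20 and 30 members passed, 2 higher. Among all probes called, members or not, the share called higher was 10.3% (4 of 39) with background scaling. It was 95.8% (366 of 382) with TMM and 88.6% (140 of 158) with total count, since probes at background then appeared to rise. With the 3 silenced samples averaged into 1, whose spread is then taken from the scrambled samples, 17 members passed, 15 lower and 2 higher. With the spread shared with the MOLM-14 samples in a fit of 12 samples, 18 members passed, 16 lower and 2 higher. Among the falls described below, miR-16-5p, miR-20a-5p/miR-20b-5p, miR-21-5p, miR-423-3p, miR-4443, miR-125a-5p, miR-188-5p, miR-574-3p, miR-574-5p, miR-128-1-5p and miR-378i lost their calls in both of these fits, and miR-25-3p in the first.

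For 12 of the 27 members called lower the silenced mean lay under the 95th percentile of background probes (20.2 scaled counts). These were the let-7 members other than let-7b-5p, and miR-15b-5p, miR-23a-3p, miR-223-3p, miR-92a-3p, the miR-20a-5p/miR-20b-5p probe, miR-574-3p and miR-378i. Their log2 fold changes are set against background signal, not against a measured level of the miRNA in silenced cells.

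**Figure D2:**
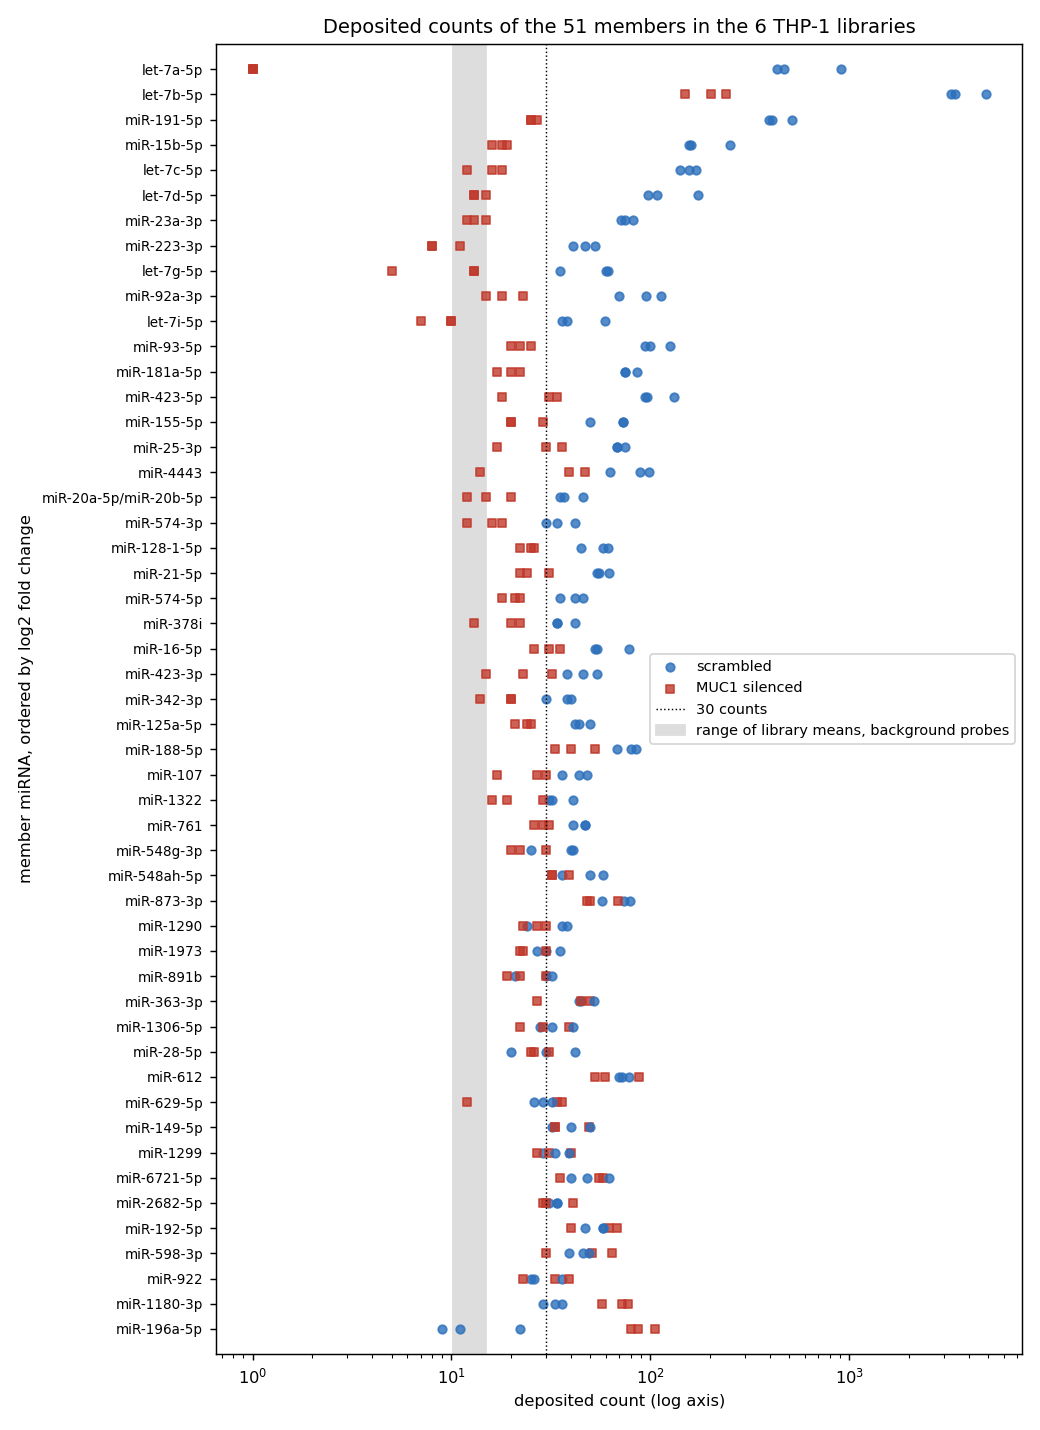
Deposited counts (horizontal log axis) of the 51 members, 1 row each, in the 3 silenced (squares) and 3 scrambled samples (circles), ordered by log2 fold change, with the range of library means of the background probes, 10.2 to 14.9 counts, shaded. In the upper rows all squares lie left of all circles, with let-7a-5p at 1 and let-7b-5p at 150 to 239 counts in silenced samples and most of the others nearer the shaded range, in the middle rows the groups mix, and in the last 2 rows, miR-1180-3p and miR-196a-5p, the order is turned.

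The let-7 family represses RAS, MYC and HMGA2 mRNAs and is held back in stem-like cells by LIN28. Of 9 family probes fitted 6 were members, and these 6 were called lower, against 4.49% of all fitted probes. All but let-7b-5p were members through the scrambled group alone. let-7b-5p, the miRNA of highest count in both groups, was at 239, 203 and 150 counts in silenced and 3409, 4860 and 3259 in scrambled samples. It fell 17.2-fold, a log2 fold change of -4.11 ± 0.29 (SE, n = 3 each), with an adjusted p of 1.44e-20 by edgeR's quasi-likelihood test. Such sizes of p depend on which probes share the spread. With only probes of a mean of 30 counts or more, the same test gave 2.14e-07 for let-7b-5p. For miR-191-5p and miR-196a-5p, described below, it gave 4.44e-07 and 2.38e-06. let-7b-5p was the one let-7 member that stayed well above background. Above the background level 5.45% ± 0.37 (SD over the 3 silenced samples) of its scrambled level was left. Its hairpin lies at chr22:46113686-46113768 on the plus strand (RefSeq, GRCh38.p14), beside that of 1 of the 3 let-7a copies.

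let-7c-5p went from 141, 170 and 157 counts in scrambled to 18, 16 and 12 in silenced samples (log2 fold change -3.15 ± 0.23), and let-7d-5p from 97, 173 and 108 to 13, 15 and 13 (-3.00 ± 0.25). let-7g-5p (-2.14 ± 0.28) and let-7i-5p (-2.10 ± 0.29) started lower, at 35 to 61 and 36 to 59 counts, and ended at 5 to 13 and 7 to 10. These 4 ended at the level of background probes, so their folds do not say how much miRNA was left. let-7a-5p was at 471, 913 and 434 counts in scrambled samples and at 1, the lowest value of the table and under the mean of the background probes, in all 3 silenced samples, so no fold is given. The same value of 1 stood in silenced MOLM-14 sample 1, where samples 2 and 3 had 395 and 78 counts. Whether 1 is a measured level or was set in processing was not tested, and the call of let-7a-5p rests on it. The 3 family probes that were no members, let-7e-5p, let-7f-5p and miR-98-5p, had at most 25 counts in any THP-1 sample and did not pass.

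miR-191-5p, whose hairpin lies within the spans of DALRD3 and NDUFAF3 at chr3:49020618-49020709, followed let-7b-5p in size. It had 25, 27 and 25 counts in silenced and 408, 517 and 397 in scrambled samples, and its log2 fold change was -3.90 ± 0.24, with an adjusted p of 6.36e-24 by edgeR. Above background 3.63% ± 1.18 (SD, n = 3) of its scrambled level was left. miR-425-5p, from the same transcript as miR-191, was at 8 to 12 counts in all 6 samples. That is the level of background probes, so whether it changed cannot be seen.

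miR-15b-5p and miR-16-5p share a seed, target BCL2 and cyclin mRNAs, and come from hairpins 60 bases apart at the SMC4 gene on chromosome 3. miR-15b-5p was at 161, 253 and 156 counts in scrambled and 19, 16 and 18 in silenced samples, the silenced level lying within background (log2 fold change -3.23 ± 0.24). miR-16-5p was at 54, 78 and 53 against 35, 26 and 31 counts (-0.81 ± 0.22, edgeR adjusted p = 0.0117). It has a further copy in DLEU2 on chromosome 13, and its call was lost with the silenced samples averaged (adjusted p = 0.734), without silenced sample 1 (-0.81, adjusted p = 0.0862), silenced sample 2 (-0.67, adjusted p = 0.193) or scrambled sample 2 (-0.62, adjusted p = 0.118).

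The cluster from miR-17 to miR-92a and its paralogs, which promote proliferation of blood cells and are induced by MYC, had 5 members among 11 fitted probes, and 4 were called lower, against 4.49% of all fitted probes. Of these, miR-92a-3p, miR-93-5p and the joint probe were members through the scrambled group alone. miR-92a-3p was at 95, 113 and 70 counts in scrambled and 23, 18 and 15 in silenced samples (log2 fold change -2.12 ± 0.23). miR-93-5p was at 100, 126 and 94 against 25, 22 and 20 counts (-2.06 ± 0.22). miR-25-3p (-1.16 ± 0.22) and the joint probe for miR-20a-5p and miR-20b-5p (-1.14 ± 0.26) were also called lower, and with the silenced samples averaged they were not (adjusted p = 0.116 and 0.322). miR-363-3p shares the seed of miR-25-3p and miR-92a-3p, and its hairpin lies 86 bases from 1 of the 2 miR-92a copies on the X chromosome. It was at 50, 45 and 27 counts in silenced and 45, 44 and 52 in scrambled samples, groups that overlap, with a log2 fold change of -0.03 (95% interval -0.45 to 0.39), an interval that leaves out falls the size of those of its seed relatives.

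Of the myeloid list, 3 of 7 fitted probes were members and were called lower, against 4.49% of all fitted probes, miR-223-3p and miR-155-5p being members through the scrambled group alone. miR-223-3p, which shapes granulocyte and monocyte maturation, was at 47, 41 and 53 counts in scrambled and at 11, 8 and 8, the level of background, in silenced samples (log2 fold change -2.18 ± 0.28). miR-155-5p, induced in inflammation, was at 73, 73 and 50 against 29, 20 and 20 counts (-1.32 ± 0.23). miR-21-5p, which targets PDCD4, was at 54, 62 and 55 against 31, 24 and 22 counts (-0.96 ± 0.22), and its call was lost with the silenced samples averaged (adjusted p = 0.427) and in the fit of 12 samples (adjusted p = 0.0868). Other markers of a myeloid line, miR-142-3p and miR-146a-5p, were low and did not pass, with overlapping groups. miR-142-3p, abundant in blood cells, was at 16, 16 and 10 counts in silenced and 14, 23 and 22 in scrambled samples (log2 fold change -0.30). miR-146a-5p was at 27, 16 and 17 against 22, 28 and 31 counts (-0.24). Markers of other cell types (epithelial, erythroid, muscle, neural and endothelial) had no member among 14 fitted probes, and 0 passed by edgeR, 1 of them with an unadjusted p under 0.05. That one was miR-9-5p, a neural miRNA, at 9, 12 and 5 counts in silenced and 14, 15 and 28 in scrambled samples. The highest count of the 14 in any THP-1 sample was 29. Their summed counts were 143 to 203 in silenced and 189 to 253 in scrambled samples.

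Other named falls came from smaller groups. miR-23a-3p, which represses glutaminase, was at 71, 75 and 82 counts in scrambled and 13, 15 and 12, the level of background, in silenced samples (log2 fold change against that level -2.31 ± 0.24). For miR-24-3p of the same cluster, at 8 to 15 counts and so at background throughout, a change could not be seen. miR-181a-5p, a regulator of lymphocyte development, fell from 75 to 86 counts to 17 to 22 (-1.81 ± 0.22). Both arms of the miR-423 hairpin fell, with log2 fold changes of -1.77 ± 0.22 for miR-423-5p and -0.80 ± 0.24 for miR-423-3p. miR-4443 was at 47, 39 and 14 counts in silenced and 63, 89 and 99 in scrambled samples (-1.15 ± 0.22), and silenced sample 3 lay far below the other 2. With the silenced samples averaged its adjusted p was 0.101. miR-125a-5p (-0.77 ± 0.23), a myeloid progenitor miRNA, and miR-188-5p (-0.70 ± 0.20) passed narrowly, with edgeR adjusted p of 0.0306 and 0.0206. miR-125a-5p lost its call without any 1 of 5 of the 6 libraries, all but scrambled sample 2. miR-188-5p lost it without any silenced sample or without scrambled sample 1, and miR-423-3p without silenced sample 2 or 3 or without scrambled sample 1 or 2. A further 4 members fell that no naming rule picks and that are named after their values were seen, miR-574-3p (-1.01), miR-128-1-5p (-0.97), miR-574-5p (-0.82) and miR-378i (-0.82), with both miR-574 arms coming from 1 hairpin.

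miR-196a-5p and miR-1180-3p were the 2 members that rose, and both did so under each of the 20 alternative settings. miR-196a-5p is encoded within the HOX gene clusters, at chr12:53991738-53991847 (plus strand) and chr17:48632490-48632559 (minus strand), and represses HOX mRNAs. It was at 11, 22 and 9 counts in scrambled samples, the level of background, and at 106, 87 and 80 in silenced ones, so no fold is given, and the fitted log2 value was 2.88 ± 0.24 (edgeR adjusted p = 5.58e-17). Of the other HOX cluster probes, miR-196b-5p, miR-10a-5p and miR-10b-5p were at 9 to 26 counts and did not pass. miR-1180-3p, whose hairpin lies within the span of B9D1 at chr17:19344506-19344574, was at 77, 72 and 57 counts in silenced and 36, 33 and 29 in scrambled samples. It rose 2.38-fold, or by 1.25 ± 0.21 on the log2 scale (edgeR adjusted p = 2.62e-06). In silenced cells they had the highest mean counts after let-7b-5p, at 91 ± 13.5 and 68.7 ± 10.4 (SD, n = 3).

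**Figure D3:**
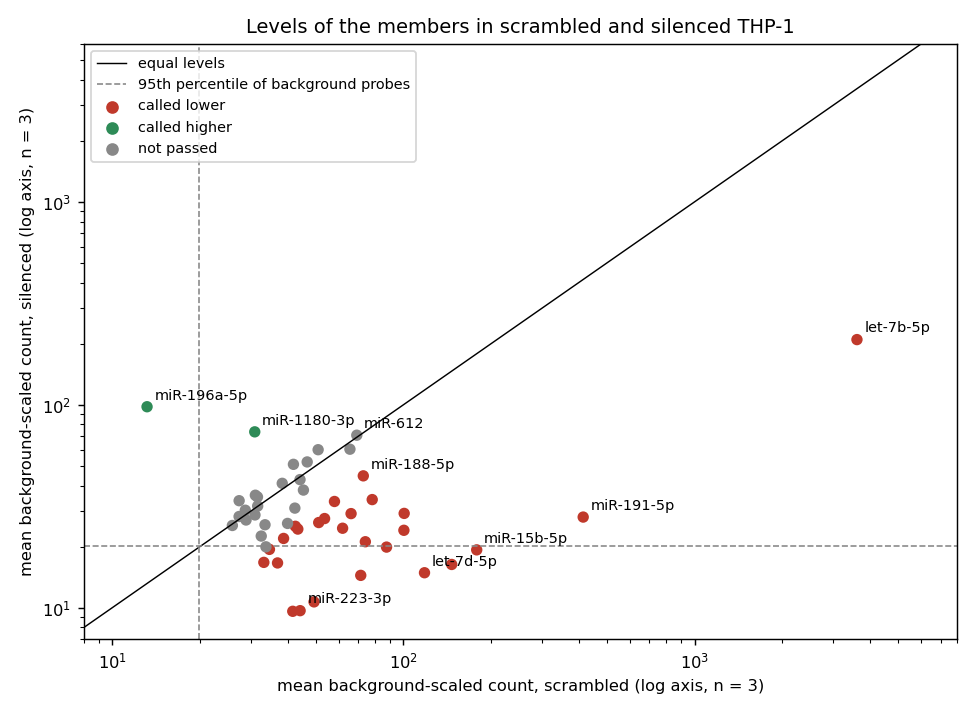
Mean background-scaled counts of 50 members (let-7a-5p, at 1 in silenced samples, is left out) in silenced (vertical log axis) against scrambled samples (horizontal log axis), n = 3 each, with the line of equal levels and, dashed, the 95th percentile of background probes (20.2 in silenced and 19.9 in scrambled). Points called lower lie under the line and many reach the dashed level. Points not passed lie under, along or just above the line, up to miR-612 at 70.8 scaled counts in silenced samples. The points of miR-196a-5p and miR-1180-3p lie farther above it.

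The 22 members that did not pass had log2 fold changes from -0.80 to 0.31 and scrambled means of 27.7 to 73.3 counts. miR-612 was at 88, 59 and 53 counts in silenced and 78, 72 and 70 in scrambled samples (log2 fold change 0.04, 95% interval -0.35 to 0.43). miR-192-5p (0.24), miR-873-3p (-0.13), miR-598-3p (0.29) and miR-6721-5p (0.17) were likewise at 30 to 79 counts in every sample, with overlapping groups. The members nearest to no difference were miR-1306-5p (0.02), miR-363-3p (-0.03), miR-891b (-0.03), miR-28-5p (0.04) and miR-612. miR-342-3p, from the EVL gene and high in lymphoid cells, was at 14, 20 and 20 counts in silenced and 30, 38 and 40 in scrambled samples, groups that do not overlap, and narrowly missed the threshold (-0.80 ± 0.26, edgeR adjusted p = 0.0589). With TMM or total count scaling several of this group passed as higher, as given with the settings.

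**Figure D4:**
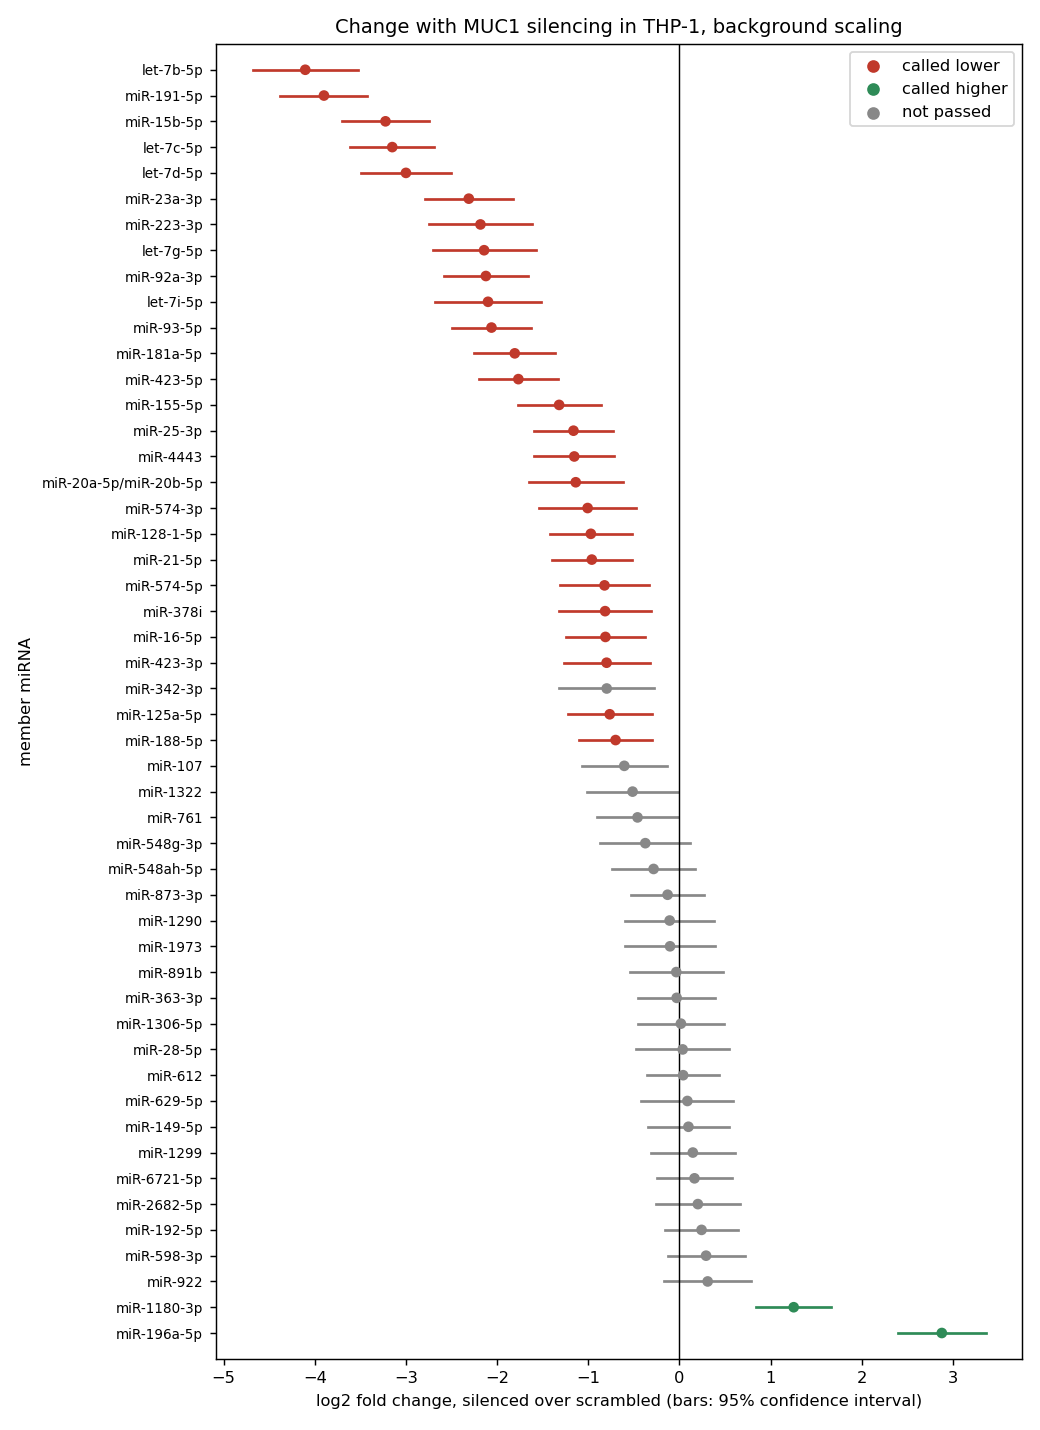
Log2 fold change of silenced over scrambled THP-1 samples (horizontal axis) for 50 members (let-7a-5p left out), with 95% confidence intervals from edgeR as bars and colours for members called lower, called higher or not passed. Values run from -4.11 for let-7b-5p to 2.88 for miR-196a-5p, and the members that did not pass lie between -0.80 and 0.31.

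Over the 50 members with values above the floor, the log2 scrambled level and the log2 fold change had a Pearson r of -0.79 and a Spearman rho of -0.72, across miRNAs that share the same 6 libraries and with the scrambled level standing on both axes. The relation is given as a description only, since the count rule admitted 21 of the 51 members through the scrambled group alone and 12 falls end at background, where the fold follows the scrambled level. Median GC contents were 47.8% over the 28 mature sequences of members that fell (range 36.4% to 65.2%), 47.7% over the 18 matched ones that did not pass (22.7% to 63.6%) and 52.3% over the 2 that rose (40.9% and 63.6%). Among the hairpins with a RefSeq position in the table used, members within 10 kb of each other formed 7 pairs, of which 2 are the arms of 1 hairpin (miR-423 and miR-574) and 2 share let-7a-5p. Both miRNAs were called lower in 6 of the 7, where 27 of all 51 members were, and the other pair was miR-363-3p beside miR-92a-3p.

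A list of miRNAs reported to act on PD-L1, an immune checkpoint ligand, overlaps the lists above. Of its 23 miRNAs, 22 probes were fitted, 6 were members and were called lower: miR-15b-5p, miR-16-5p, miR-93-5p, miR-155-5p, miR-21-5p and the miR-20a-5p/miR-20b-5p probe. With miR-197-3p, no member at 25, 37 and 29 counts in scrambled and 20, 8 and 12 in silenced samples, 7 of the 22 passed as lower, against 4.49% of all fitted probes. Of the 6, miR-15b-5p, miR-93-5p, miR-155-5p and the joint probe were members through the scrambled group alone, and miR-16-5p, miR-21-5p and the joint probe lost their calls with the silenced samples averaged and in the fit of 12 samples. The median log2 fold change of the 22 was -0.32. miR-34a-5p, a p53 target, was at 26, 18 and 8 counts in silenced and 20, 26 and 26 in scrambled samples (-0.29, 95% interval -0.84 to 0.26), and its groups overlapped. The miR-29, miR-30 and miR-26 lists had no member, with highest counts of 22, 26 and 23, and 0 of their 10 probes passed by edgeR, 1 of them, miR-30c-5p, with an unadjusted p under 0.05. Of the miR-125/99/100 list 1 of 5 fitted probes was a member, miR-125a-5p.

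The count rule had members close to its edge. With 30 counts as the lowest of their 3 highest values, miR-1290, miR-1973, miR-28-5p, miR-342-3p, miR-548g-3p, miR-574-3p and miR-891b were just inside, and miR-1183 and miR-874-5p, at 29, were just outside.

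The same silencing in MOLM-14, another acute myeloid leukaemia line of the series with 3 silenced and 3 scrambled samples, served to show where THP-1 differed. Its silenced sample 2 stands apart, for instance with miR-16-5p at 888 counts against 55 and 57, and the source names of silenced samples 2 and 3 read MUC2 and MUC3 where titles read MUC1. In a fit of all 12 samples the spread was shared by the groups. The effect in THP-1 minus that in MOLM-14 passed for 13 members, 11 lower and 2 higher in THP-1. Over the 783 probes fitted, 1.92% passed (1.53% lower, 0.383% higher). The members were chosen by THP-1 counts only, 21 of the 51 through the scrambled THP-1 samples alone. The balance of lower and higher differences among them is therefore not independent of that choice. let-7b-5p fell in THP-1 by -4.12 and had a value of -0.84 in MOLM-14, a difference of -3.27 ± 0.44 (SE, edgeR adjusted p = 0.000230), and -3.10 without MOLM-14 silenced sample 2. let-7c-5p differed by -3.00 ± 0.44, miR-191-5p by -2.77 ± 0.40, miR-181a-5p by -2.56 ± 0.39 and miR-4443 by -2.53 ± 0.45. miR-181a-5p was at 404, 494 and 407 counts in silenced and 217, 313 and 379 in scrambled MOLM-14, and miR-4443 at 107, 88 and 128 against 41, 51 and 58, so in both the silenced MOLM-14 samples lay above all scrambled ones. All 13 differences passed without MOLM-14 silenced sample 2.

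miR-196a-5p (2.29 ± 0.49) and miR-1180-3p (1.79 ± 0.37) were the 2 members with a higher effect in THP-1. The first lost that call without THP-1 scrambled sample 1 or 3 and the second without scrambled sample 3. miR-196a-5p was at 18, 39 and 25 counts in silenced and 21, 18 and 24 in scrambled MOLM-14. miR-93-5p was the 1 member that passed in MOLM-14 in this fit (-1.52 ± 0.34, edgeR adjusted p = 0.0417, against 0.511% of fitted probes), and its difference between lines was -0.55 with a 95% interval from -1.53 to 0.44.

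**Figure D5:**
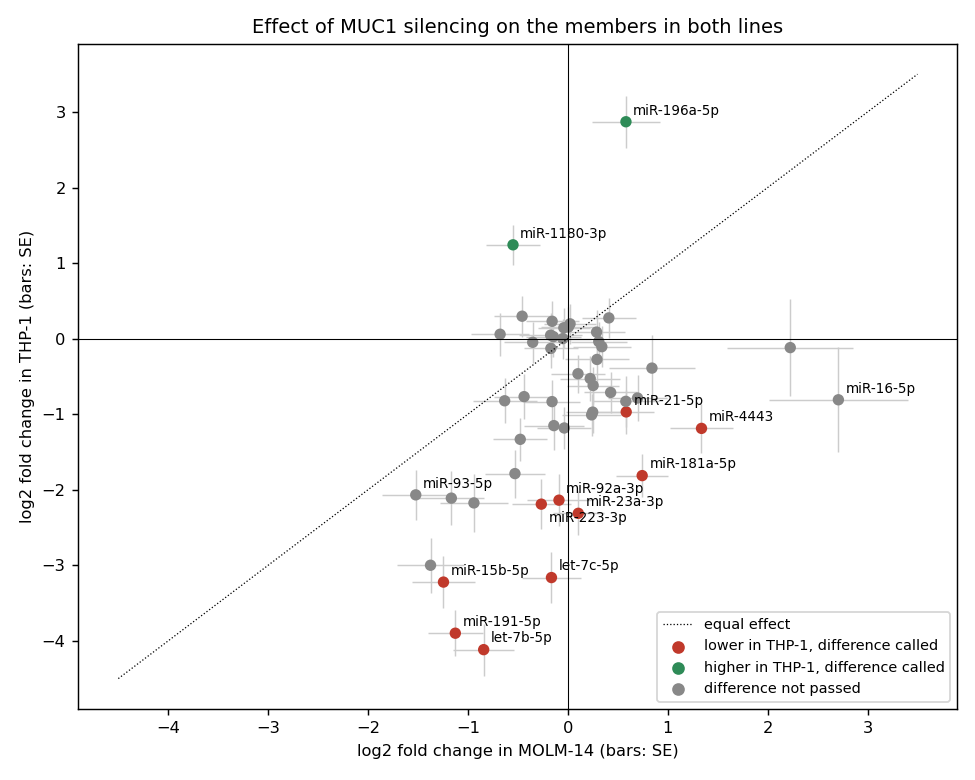
Log2 fold change with MUC1 silencing in THP-1 (vertical axis) against MOLM-14 (horizontal axis) for 50 members in the fit of 12 samples, with standard errors as bars and a dotted line of equal effect (let-7a-5p left out). Red points, lower in THP-1, lie well under the line, with let-7b-5p at -0.84 in MOLM-14 and -4.12 in THP-1, and the green points miR-196a-5p and miR-1180-3p lie above it.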

How the data were processed

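The deposited values are whole-number probe counts, taken as counts from the values themselves, and per the labels' protocols RNA was isolated with a Qiagen kit and assayed by the NanoString manufacturer's procedure. Counting software, background correction and lane scaling: not given in the sources used here. No value is below 1. In the THP-1 samples 18 of 798 probes were at 1 in all 6 and were left out. Effective library size was the sum over 681 background probes (between 1 and 30 counts throughout). edgeR 4.0.16 (R 4.3.3) fitted 2 group means to 780 probes by quasi-likelihood, with Benjamini-Hochberg adjustment over all of them. Standard errors are the log2 fold change over the square root of F. The line comparison used 12 samples, 630 background probes and 783 fitted probes. Members, lists and the naming rule (rises, the 12 largest falls, the 10 highest levels per group, list members, the 5 nearest to 0 and the 5 largest line differences each way) were chosen with earlier results of these data known. The fit was tested on simulated data. Alternatives used DESeq2 1.42.0 and limma 3.58.1. Totals of 9002 to 20418 counts limit precision for probes near background. Same-numbered samples did not deviate together (r of 0.29, -0.17 and -0.12), so no pairing was used.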

Additional observations from a re-analysis of the deposited data

Results flagged for a closer look

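A closer look is due for the 13 members whose response to MUC1 silencing differed between the cell lines by edgeR's test of that difference. Values are THP-1 minus MOLM-14 on the log2 scale, and below 0 the response was lower in THP-1. The count rule used THP-1 samples only, and 21 of the 51 members passed it through the scrambled group alone. The number of values below 0 is not independent of that rule. In the let-7 family the difference was -3.27 for let-7b-5p and -3.00 for let-7c-5p, and the fitted -7.52 of let-7a-5p rests on silenced THP-1 samples at the lowest value of the table. miR-191-5p stood at -2.77, miR-15b-5p at -1.98 and miR-92a-3p at -2.05. The myeloid miR-223-3p stood at -1.93 and miR-21-5p at -1.55. miR-23a-3p had -2.42, miR-4443 had -2.53 and miR-181a-5p had -2.56. Above 0 were miR-1180-3p (1.79) and miR-196a-5p (2.29). Over 18 alternatives, let-7b-5p, miR-191-5p, let-7c-5p, miR-23a-3p, miR-181a-5p and miR-4443 passed in each. The call was lost in 12 of them for miR-21-5p, in 7 for miR-223-3p, in 6 for miR-92a-3p, in 5 for miR-15b-5p, in 2 for miR-196a-5p and in 1 each for miR-1180-3p and let-7a-5p. Groups of 3 samples are too small for a test of single outlying samples.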

How the results depend on the processing

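In THP-1, TMM over the members gave 382 calls (366 higher, 16 lower), with 19 members higher, 15 lower and a member median of -0.023. Total-count scaling gave 158 (140 higher, 18 lower), with 11 members higher, 17 lower and a median of -0.24. Under TMM miR-125a-5p (0.00041), miR-188-5p (0.068), miR-873-3p (0.63), miR-891b (0.73) and miR-363-3p (0.74) turned positive, as did miR-363-3p under total count (0.53). These follow from the shift such scaling adds to every value. The fit of 12 samples gave 21 calls (18 lower), with 18 members called, 16 lower. With silenced samples averaged, 18 passed (2 higher, 16 lower), 17 of them members, 15 lower. Higher calls were 2 with no scaling, DESeq2, members only, a mean of 30 counts or more, or subtracted background, against 4. The member median was -0.98 with no scaling, -0.60 with limma on log2(count + 10) and -1.32 with subtracted background. Leaving out 1 THP-1 sample gave 24 calls (without silenced replicate 2) to 36, 2 to 4 higher and 22 to 32 lower, 22 to 27 members and medians of -0.75 to -0.69. The cause of these moves was not tested. Of 25 named members called, 15 kept call and direction in all 20 settings. miR-223-3p and let-7i-5p did so in the 19 that gave them a value, since neither has a mean of 30 counts. With the replicate number as a block, 39 passed as before, 29 of them members, and the line difference gave 21 calls, 2 higher and 19 lower. The line difference gave 15 calls at first, 16 (6 higher) with TMM, 24 (13 higher) with total count, and 26 (24 lower) over probes of 30 counts or more. Leaving out 1 sample gave 9 (without THP-1 scrambled replicate 1) to 30 (without MOLM-14 silenced replicate 1), 0 (without THP-1 scrambled replicate 3) to 4 higher and 8 to 27 lower. DESeq2 gave no adjusted p for 620 probes, of which 0 were members. Probes near 10 to 15 counts cannot be told from background, which limits how deep a fall can be seen.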

Other observations

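Outside the members 10 of the fitted probes passed in THP-1, 8 lower and 2 higher, named after their values were seen. miR-221-3p, which targets the receptor KIT, was at 39, 21 and 22 counts in scrambled and 10, 9 and 13 in silenced samples (-1.16 ± 0.31 on the log2 scale, edgeR adjusted p = 0.0106). miR-3065-5p was at 37, 100 and 25 against 9, 1 and 10 counts. Its value of 1 is the lowest of the table, and whether that was a measured level was not tested. miR-1908-5p (-1.21), miR-877-5p (-1.02), miR-874-5p (-0.86) and the joint probe miR-4454/miR-7975 (-1.27) were lower too. This joint probe is on a list of probes that match fragments of other RNAs, of which 1 of 3 fitted passed as lower. miR-525-5p, from the primate-specific miRNA cluster of chromosome 19, was higher at 30, 24 and 15 against 13, 11 and 13 counts (1.07 ± 0.29). miR-512-3p, of the same cluster, was higher at 12, 10 and 7 against 4, 3 and 5, counts under the background mean of each library. With no scaling the 2 higher calls were both members, so neither of these rises passed. DESeq2, which gave no adjusted p for 620 probes, also called 2 higher, both members. It called 25 lower, 23 of them members. miR-150-5p, a lymphoid miRNA, was at 17, 18 and 15 against 24, 12 and 16 counts and did not pass.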
